A study of Arabidopsis thaliana with 12 samples.

Results

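The 5 genes described here act in the synthesis or remodelling of cellulose and xyloglucan, the main load-bearing polysaccharides of the growing plant cell wall. They are *CSI1* (AT2G22125), *CESA10* (AT2G25540), *COBRA* (AT5G60920), *CSLC4* (AT3G28180) and *XTH30* (AT1G32170). The genes were chosen by name, on an array with 22746 probe sets. For *CSI1*, *CESA10* and *XTH30* the probe set was found through the study's list of responsive genes. RNA of the 5 genes was measured with Affymetrix ATH1 arrays in *A. thaliana* cell suspension culture, which is grown without hormones and in the dark. Cells that had grown for 7 d on 87 mM xylose (Xyl) as sole carbon source received fructose (Fru), glucose (Glc), sucrose (Suc) or, as the control, Xyl, each at 1 mM for 1 h. Each treatment has 3 arrays, numbered replicates 1 to 3, so that all groups share the Xyl-adapted state and the control cells were given more of the sugar they grew on. The design asks whether a small dose of a sugar changes a transcript within that time.

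In dicot primary walls, cellulose is made at the plasma membrane by rosette complexes of CESA catalytic subunits, which move along cortical microtubules. Xyloglucan is made in the Golgi apparatus, where CSLC enzymes build its glucan backbone and other enzymes add side chains, and it is then secreted. In the wall, enzymes of the XTH family cut xyloglucan chains and rejoin them, a step long linked to cell expansion.

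The arrays report log2 RMA values, which are background-corrected, quantile-normalized and summarised over the probes of each set, with medians of 4.70 to 4.84 on the 12 arrays. Each sugar was compared with Xyl in limma, in 1 fit without and 1 with the replicate number as a block, since arrays with the same number resembled each other. A gene is said to pass where its unadjusted p was under 0.002, the threshold given in the methods. No member had a Benjamini-Hochberg adjusted p under 0.05 against Xyl in limma in either fit. The 3 comparisons share their Xyl arrays, and with 3 arrays in each group the smallest p of an exact test is 0.1. *CSI1*, *CESA10*, *CSLC4* and *XTH30* are among the genes that the study selected on these same arrays, so a change of theirs is not independent evidence. *COBRA* is not among those genes. In RNA from a whole culture, fewer cells that express a gene and less RNA per cell cannot be told apart.

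*CSI1*, *CSLC4* and *XTH30* were lower with each sugar than with Xyl on average, *CESA10* was higher, and *COBRA* differed little. Without the block, 0 of the 5 genes passed with Fru, 0 with Glc and 1 with Suc, where 0.0835%, 0.044% and 0.0659% of all probe sets passed. With the block, 1, 2 and 1 of them passed, against 1.09%, 1.24% and 1.06% of all probe sets. Arrays of sugar and Xyl did not overlap for 3 genes with Fru, 4 with Glc and 1 with Suc, against 6.77%, 6.26% and 6.21% of all probe sets. As 4 of the 5 were selected by the study for their change, these shares are a description.

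**Figure D1:**
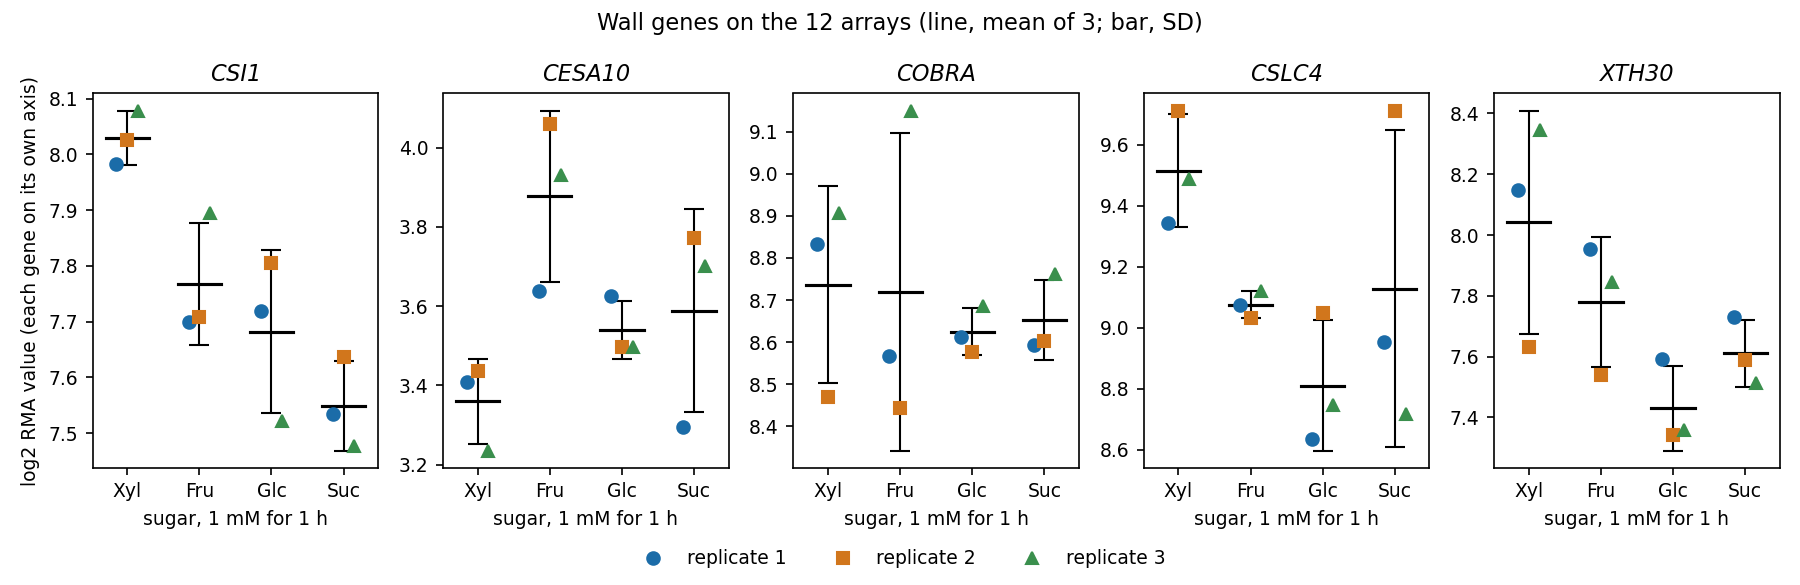
Log2 RMA values (vertical axis, a separate scale for each gene) of the 5 wall genes on the 12 arrays, by sugar (horizontal axis). Symbols are single arrays by replicate, lines are means of 3 arrays and bars are SDs. The 3 *CSI1* arrays with Xyl lie above all 9 others, *CESA10* is highest with Fru, and the *COBRA* arrays of the 4 sugars overlap.

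Of the genes for cellulose synthesis, *CSI1* encodes a long scaffold protein that ties CESA complexes to microtubules. Its log2 RMA value with Xyl was 7.98, 8.03 and 8.08 in replicates 1, 2 and 3. It was 7.70, 7.71 and 7.89 with Fru, 7.72, 7.81 and 7.52 with Glc, and 7.53, 7.64 and 7.48 with Suc. Each of the 3 Xyl arrays was thus above each of the 9 arrays with another sugar. The group means were 8.03 ± 0.05 with Xyl, 7.77 ± 0.11 with Fru, 7.68 ± 0.15 with Glc and 7.55 ± 0.08 with Suc (SD, n = 3 each). *CSI1* fell with Suc, with a log2 fold change of −0.48 and a standard error of 0.10, which is 1.39-fold lower. It passed the threshold both without the block (limma, adjusted p = 1) and with it (adjusted p = 0.13). Its log2 fold change was −0.26 with Fru (95% interval without the block −0.49 to −0.03) and −0.35 with Glc (−0.58 to −0.12). Neither of these passed in either fit. Within replicates 1, 2 and 3 the Suc array was below the Xyl array by −0.45, −0.39 and −0.60. The mean of the 3 sugars was also lower than Xyl, by −0.36 (standard error 0.09). Without the block, *CSI1* was the only one of the 5 genes to pass there, against 0.101% of all probe sets.

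The call of *CSI1* with Suc, though not its direction, changed with single arrays. In the fit without the block it was lost when Suc replicate 1 or 3 or any 1 of the Xyl arrays was left out (log2 fold change −0.44 to −0.50). *CSI1* is also a long gene, at 8520 bp longer than 99.1% of the 13565 named probe sets' genes, and the longest 10% of genes had a median log2 fold change of −0.10 with Suc against 0.02 for the rest. After the trend of each array with gene length was removed, its log2 fold change with Suc was −0.31 and did not pass in the fit with the block. The part of gene length in the difference was not tested beyond this.

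*CESA10* encodes a catalytic subunit closely related to CESA1. Its log2 RMA value was 3.41, 3.44 and 3.24 with Xyl and 3.64, 4.06 and 3.93 with Fru in replicates 1, 2 and 3, so that the Fru arrays lay above the Xyl arrays. It was 3.63, 3.50 and 3.50 with Glc, also apart from Xyl, and 3.30, 3.77 and 3.70 with Suc, where replicate 1 fell among the Xyl arrays. The means were 3.36 ± 0.11 with Xyl, 3.88 ± 0.22 with Fru, 3.54 ± 0.07 with Glc and 3.59 ± 0.26 with Suc (SD, n = 3 each). With Fru it was higher by a log2 fold change of 0.52, or 1.43-fold, with a standard error of 0.15 without the block and 0.13 with it. *CESA10* passed with Fru only in the fit with the block (limma, adjusted p = 0.16). The estimate was 0.18 with Glc (95% interval without the block −0.15 to 0.52) and 0.23 with Suc (−0.11 to 0.56). With the block the intervals were −0.093 to 0.454 with Glc and −0.044 to 0.503 with Suc. Neither difference passed in either fit.

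The Fru array of *CESA10* was above the Xyl array of its replicate by 0.23, 0.63 and 0.70. In the fit with the block the call was lost without replicate 2 or 3 of Fru or of Xyl (log2 fold change 0.44 to 0.50). The gene is 5422 bp long, and after the trend with gene length was removed the log2 fold change with Fru was 0.60 and passed with the block. The signal was weak on all arrays, and the probe set lies in the dimmer part of the array that a filter on dim probe sets removes. No probe set was named for *CESA1*, and how far the signal belongs to *CESA10* alone was not tested.

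*COBRA* encodes a glycosylphosphatidylinositol-anchored protein needed for oriented cellulose deposition and cell expansion. Its log2 RMA value was 8.83, 8.47 and 8.91 with Xyl in replicates 1, 2 and 3. It was 8.57, 8.44 and 9.15 with Fru, 8.61, 8.58 and 8.69 with Glc, and 8.59, 8.60 and 8.76 with Suc. The groups overlapped throughout, and in each group the array of replicate 3 was the highest. The means were 8.74 ± 0.23 with Xyl, 8.72 ± 0.38 with Fru, 8.63 ± 0.06 with Glc and 8.65 ± 0.09 with Suc (SD, n = 3 each). Against Xyl the log2 fold change was −0.02 (Fru), −0.11 (Glc) and −0.08 (Suc), each with a standard error of 0.18. With the block, the 95% intervals were −0.28 to 0.25 with Fru, −0.38 to 0.15 with Glc and −0.35 to 0.18 with Suc. No difference of *COBRA* from Xyl passed in either fit, which does not show that its level stayed the same.

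Of the genes for xyloglucan, *CSLC4* encodes a glucan synthase that builds the xyloglucan backbone. Its log2 RMA value with Xyl was 9.34, 9.71 and 9.49 in replicates 1, 2 and 3. With Glc it was 8.64, 9.05 and 8.75, and with Fru it was 9.08, 9.03 and 9.12. The arrays of both hexoses lay below those with Xyl. With Suc it was 8.95, 9.71 and 8.72, and replicate 2 stood at the level of its Xyl array while the other 2 were lower. The means were 9.51 ± 0.19 with Xyl, 9.08 ± 0.04 with Fru, 8.81 ± 0.21 with Glc and 9.13 ± 0.52 with Suc (SD, n = 3 each). With Glc *CSLC4* was 1.63-fold lower, a log2 fold change of −0.70 with a standard error of 0.23 without the block and 0.16 with it. It passed with Glc only in the fit with the block (limma, adjusted p = 0.12). The estimate was −0.44 with Fru (95% interval without the block −0.95 to 0.07) and −0.39 with Suc (−0.90 to 0.12). With the block the intervals were −0.777 to −0.101 with Fru and −0.725 to −0.049 with Suc, both below 0. Neither difference passed in either fit.

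Within the 3 replicates the Glc array of *CSLC4* was below its Xyl array by −0.71, −0.66 and −0.74, the most even of the differences from Xyl among the 5 genes. The Suc array differed from it by −0.39, 0.00 and −0.77. Without Suc replicate 2, the gene passed with Glc without the block too (log2 fold change −0.70), and its log2 fold change with Suc was −0.68, while without Suc replicate 3 the latter was −0.18. In the fit with the block, the call with Glc was lost without Glc replicate 1 or 2 or any 1 of the Xyl arrays (log2 fold change −0.65 to −0.74).

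*XTH30* encodes a xyloglucan endotransglucosylase/hydrolase. Its log2 RMA value was 8.15, 7.63 and 8.34 with Xyl in replicates 1, 2 and 3, and 7.59, 7.34 and 7.36 with Glc. The Glc arrays lay below the Xyl arrays, the highest of them by 0.04 under the lowest Xyl array. It was 7.95, 7.54 and 7.84 with Fru and 7.73, 7.59 and 7.51 with Suc, and the arrays of both sugars overlapped with those of Xyl, whose replicate 2 was low. The means were 8.04 ± 0.37 with Xyl, 7.78 ± 0.22 with Fru, 7.43 ± 0.14 with Glc and 7.61 ± 0.11 with Suc (SD, n = 3 each). With Glc *XTH30* was 1.53-fold lower, a log2 fold change of −0.61 with a standard error of 0.18 without the block and 0.13 with it. It passed with Glc only in the fit with the block (limma, adjusted p = 0.11). The estimate was −0.26 with Fru (95% interval without the block −0.67 to 0.15) and −0.43 with Suc (−0.84 to −0.02). With the block the intervals were −0.542 to 0.016 with Fru and −0.71 to −0.153 with Suc. Neither difference passed in either fit.

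In each replicate all 3 sugar arrays of *XTH30* were below the Xyl array, with Glc by −0.56, −0.29 and −0.99 and with Suc by −0.42, −0.04 and −0.83. The size depended on the Xyl arrays. Without Xyl replicate 2, the gene passed with Glc without the block too (−0.82), and without Xyl replicate 3 its log2 fold change was −0.46. In the fit with the block, the call was lost without replicate 3 of Glc (−0.53) or of Xyl (−0.44). For the mean of the 3 sugars, 3 of the 5 genes passed with the block, *CSI1*, *CSLC4* (−0.51, adjusted p = 0.13) and *XTH30* (−0.44, adjusted p = 0.12, and −0.27 without Xyl replicate 3), against 1.34% of all probe sets.

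**Figure D2:**
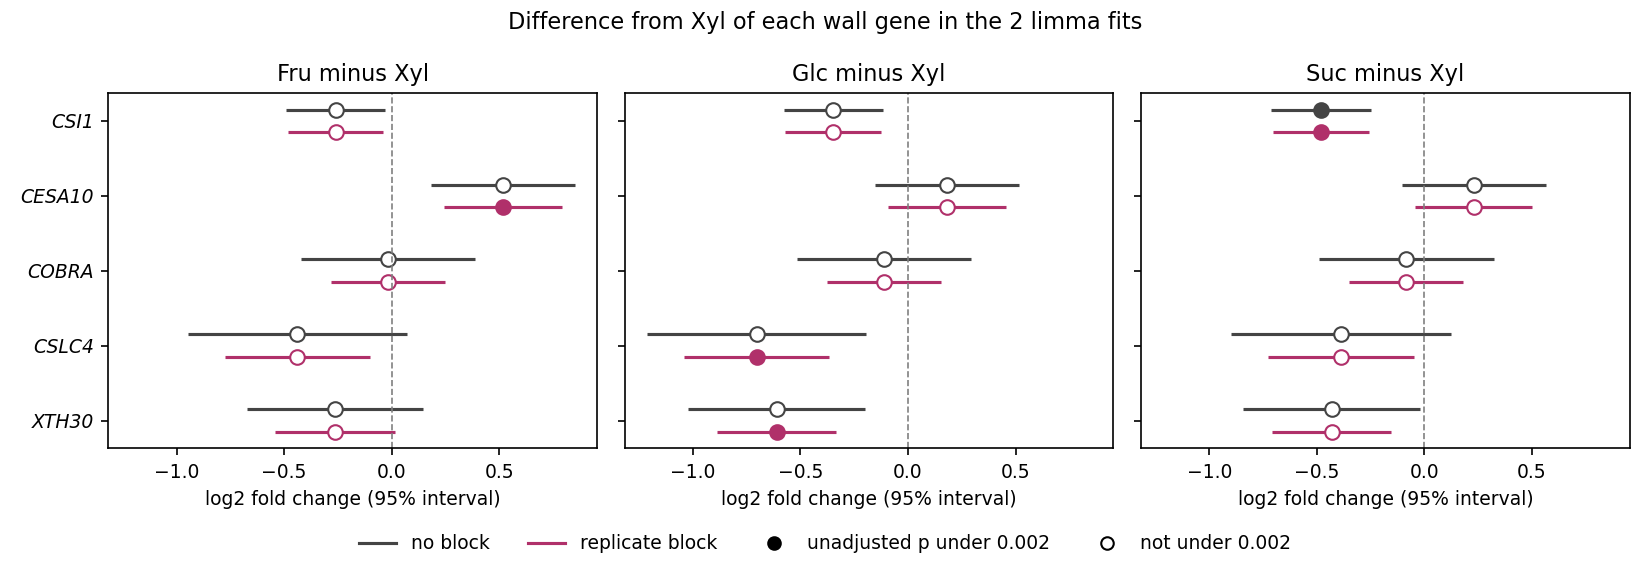
Log2 fold change against Xyl (horizontal axis) of each wall gene (vertical axis) with Fru, Glc and Suc, in the limma fit without a block and in that with the replicate block. Points are estimates, lines are 95% intervals, and filled points have an unadjusted p under 0.002. *CSI1* with Suc is filled in both fits, and *CESA10* with Fru and *CSLC4* and *XTH30* with Glc only with the block.

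**Figure D3:**
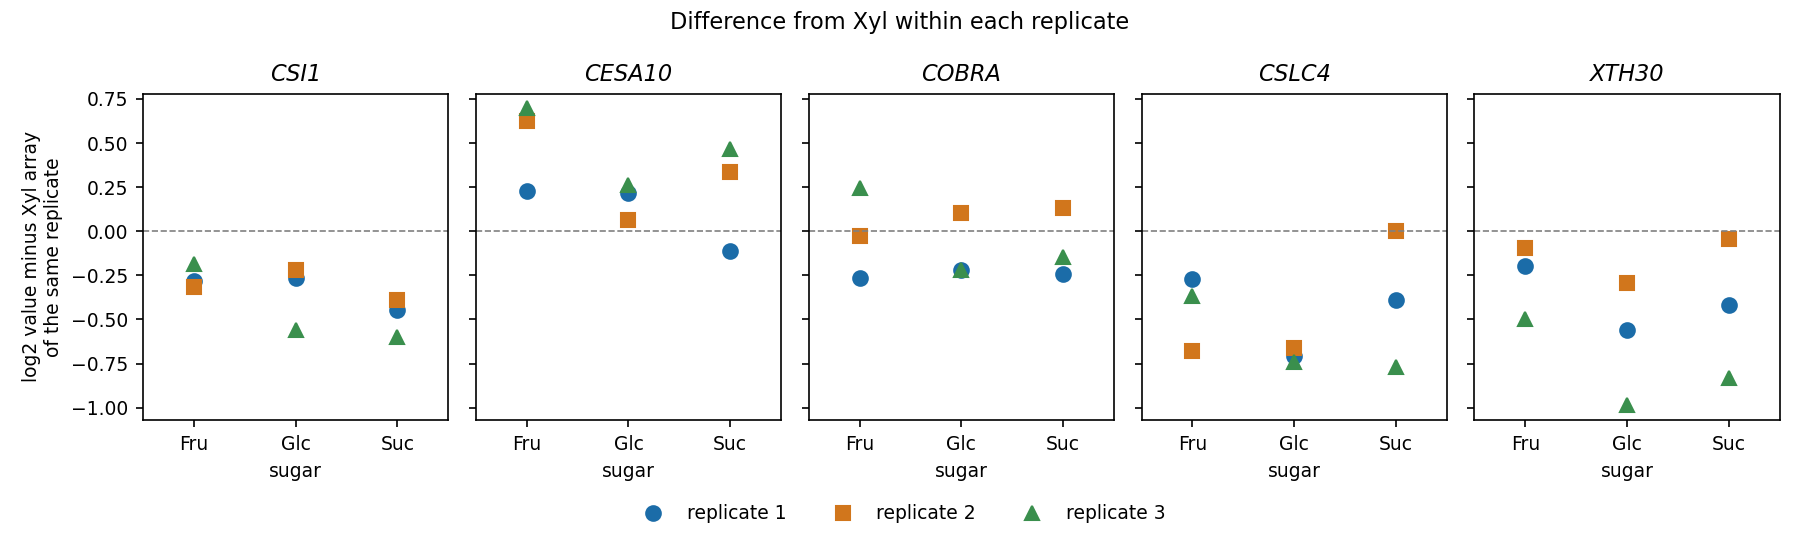
Difference of each sugar array from the Xyl array of its own replicate (vertical axis, log2) for the 5 wall genes, by sugar (horizontal axis). Each symbol is 1 pair of arrays. All 9 differences of *CSI1* and of *XTH30* are below 0, *CSLC4* with Glc spans −0.66 to −0.74, and *COBRA* lies on both sides of 0.

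The sugars themselves were compared next, since a gene that passes with 1 sugar only need not respond to it alone. The study listed *CSI1* for Suc alone, *CESA10* for Fru alone, and *CSLC4* and *XTH30* for Glc alone. These are the single sugars with which each gene passed here, so the sugar of each call is not independent evidence. None of the 15 differences between sugars (5 genes, 3 pairs of sugars) passed in limma, without the block (adjusted p = 1 for each) or with it (adjusted p = 0.42 or more). Between Glc and Fru, Suc and Fru, and Suc and Glc, 0.022%, 0.0044% and 0.0572% of all probe sets passed without the block and 0.44%, 0.585% and 0.637% with it. *XTH30* was lower with Glc than with Fru by −0.35 (95% interval with the block −0.63 to −0.07), and *CESA10* by −0.34 (−0.61 to −0.06). For *CSI1* the difference of Suc from Fru was −0.22 (−0.44 to 0.00) and that of Suc from Glc −0.13 (−0.36 to 0.09). *CSLC4* was 0.32 higher with Suc than with Glc (−0.02 to 0.66), a value that was 0.03 without Suc replicate 2. By mean, *CSI1* ran from Xyl over Fru and Glc down to Suc, *XTH30* from Xyl over Fru and Suc to Glc, *CSLC4* from Xyl over Suc and Fru to Glc, and *CESA10* from Fru over Suc and Glc to Xyl. Single arrays turned parts of these orders. Without Suc replicate 2, *CSLC4* was lower with Suc than with Fru (−0.24), and *CESA10* was lower with Suc than with Glc (−0.04, and −0.01 without Suc replicate 3). Neighbours in these orders did not differ past the threshold in either fit, and these arrays showed a preference for 1 sugar for none of the genes. By quantitative PCR with mannitol as a control, the study reported *XTH30* as responsive to Fru, Glc and Suc. Among the sugar analogues it tested, L-glucose was the effective one for *XTH30*. From this the study infers a Glc signal sensed outside the cell, which these arrays do not test.

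Arrays of the 5 genes were also compared between replicates, since the replicate took a median of 54% of the variation of a probe set. The methods name 3 biological replicates per treatment and describe homogeneous cells that were split into flasks before the treatment. They do not say whether arrays with the same number came from 1 culture. If same-numbered flasks came from 1 culture, these tests measure the spread between flasks and not between cultures. *CSI1* was nearly level, with means of 7.73, 7.79 and 7.74 over the 4 arrays of replicates 1, 2 and 3. *COBRA* differed more, with means of 8.65, 8.52 and 8.88. In a limma fit of sugar and replicate, *COBRA* was higher in replicate 3 than in the mean of replicates 1 and 2 by 0.29 (standard error 0.09, adjusted p = 0.019), and *XTH30* was higher in replicate 1 than in replicate 2 by 0.33 (standard error 0.11, adjusted p = 0.042). The difference of *COBRA* was 0.17 without Fru replicate 3 and no longer had an adjusted p under 0.05. That of *XTH30* lost its call without any 1 array of replicate 1 and without Fru or Xyl replicate 2 (0.22 to 0.35). *CSLC4* had means of 9.002, 9.376 and 9.018, and replicate 1 was below replicate 2 by −0.37 (adjusted p = 0.056), with a call in the trended and robust fit, without the dim probe sets and without Fru replicate 2 (−0.52), Fru replicate 3 or Suc replicate 3. Without Suc replicate 2 the difference was −0.20, with no call. *CESA10* had means of 3.49, 3.69 and 3.59 and did not pass.

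Thus 1 of the 5 genes had an adjusted p under 0.05 in the first of these comparisons and 1 in the other, where 47.9% and 27.8% of all probe sets did. The sugar took 81.3% of the variation of *CSI1* over the 12 arrays, 61.4% of *CESA10*, 58.8% of *XTH30*, 51.9% of *CSLC4* and 5.77% of *COBRA*, against a median of 14.2% over all probe sets. The replicate took 1.85% for *CSI1*, 11.8% for *CESA10*, 22.5% for *XTH30*, 24.5% for *CSLC4* and 57.3% for *COBRA*, against a median of 54%. *COBRA*, the gene not selected by the study, lay near the median of all probe sets in its replicate share and below it in its sugar share. The other 4 were selected for a change against Xyl on these arrays, which favours a high sugar share and a low replicate share. Their distance from the medians is therefore a description.

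**Figure D4:**
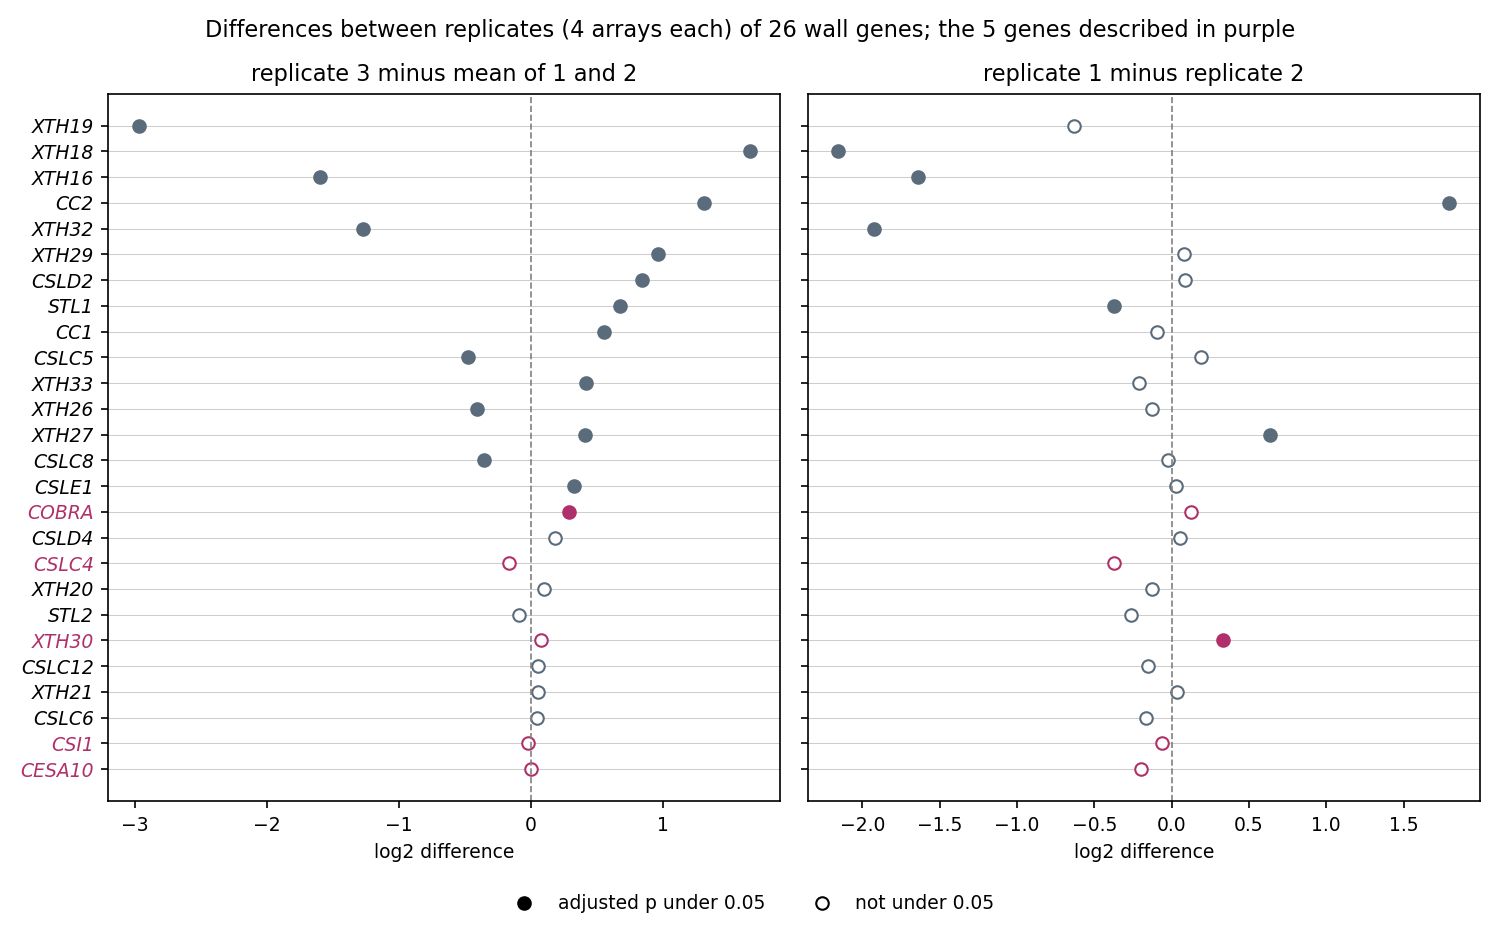
Log2 difference between replicates (horizontal axes) of 26 wall genes (vertical axis, ordered by the size of the left-hand difference), in the limma fit of sugar and replicate. Purple marks the 5 genes described, and filled points have an adjusted p under 0.05. *XTH19*, *XTH18*, *XTH16*, *CC2* and *XTH32* differ by more than 1 log2 unit at left, and the 5 genes lie in the lower part of the plot.

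Relatives of the 5 genes served as a background. Of 109 genes listed for cellulose synthesis, xyloglucan synthesis, the XTH family, nucleotide sugar supply and other cellulose synthase-like enzymes, 26 had a named probe set, the 5 included. None of the other 21 passed against Xyl without the block. With it, 1 passed for Fru, 3 for Glc and 0 for Suc, where 1.09%, 1.24% and 1.06% of all probe sets did. Their median log2 fold changes for Fru, Glc and Suc were 0.01, −0.05 and −0.01, against 0.00, 0.01 and 0.00 over all probe sets. With Fru 9 of the 21 were below 0 and 12 above, with Glc 12 and 9, and with Suc 11 and 10. Those that passed with the block were the cellulose synthase-like genes *CSLE1*, lower with Fru (−0.68, standard error 0.15, adjusted p = 0.14) and Glc (−0.65, adjusted p = 0.13), and *CSLD4*, higher with Glc (0.45, standard error 0.10, adjusted p = 0.12), with *XTH32*, higher with Glc (0.43, standard error 0.10, adjusted p = 0.13). The study selected *CSLE1* and *CSLD4* on these arrays, and their probe sets were named only through that selection, so these counts are not independent evidence.

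The nearest relatives of *CSLC4* did not pass with any sugar. With Glc, where *CSLC4* was at −0.70, the log2 fold change was −0.03 for *CSLC5*, −0.09 for *CSLC6*, 0.05 for *CSLC8* and 0.16 for *CSLC12*. The signals of *CSLC8* and *CSLC12* were weak on all arrays, at most 3.21 and 2.97 (log2). With *CSLC4*, 1 of 5 genes of the list of xyloglucan synthesis passed with Glc with the block, against 1.24% of all probe sets. Of 11 XTH genes measured, *XTH30* and *XTH32* passed with Glc with the block, in opposite directions. As the study selected *CSLC4* and *XTH30* on these arrays, both counts are a description. Among the genes numbered next to *XTH30*, the log2 fold change with Glc was 0.04 for *XTH27*, 0.00 for *XTH29* and −0.36 for *XTH33*, which encodes an XTH with a membrane anchor. Outside that group *XTH16* was at −0.56 and *XTH19* at 0.59, and neither passed in either fit. Among 5 measured partners of cellulose synthase, only *CSI1* passed with Suc, against 0.0659% of all probe sets without the block and 1.06% with it. The probe sets of *CSI1* and *XTH30* were named only through the study's selection. That these 2 passed where relatives did not is therefore not independent evidence. *STL1* and *STL2*, which encode Golgi proteins of cellulose synthesis, and *CC1* and *CC2*, which encode microtubule-binding companions of the CESA complex, differed from Xyl with Suc by −0.01, −0.13, −0.04 and −0.09, and none passed. No other CESA gene and no COBRA-like gene had a named probe set. Of 29 marker genes of xylem, root hairs, photosynthetic and dividing cells, 3 had one, *IRX10* of xylem and *EXPA7* and *EXPA18* of root hairs. They lay between 2.75 and 4.19 (log2) on the 12 arrays and did not pass with any sugar.

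Some of these relatives differed widely between replicates. *XTH19* had means of 7.66, 8.29 and 5.001 (log2, 4 arrays each) in replicates 1, 2 and 3, *XTH18* of 5.10, 7.26 and 7.83, and *CC2* of 7.17, 5.37 and 7.58. In replicate 3 against the other 2, 15 of the 21 genes (71.4%) had an adjusted p under 0.05 in limma, 9 of them higher, against 47.9% of all probe sets. Between replicates 1 and 2 it was 6 of 21 (28.6%), near the 27.8% of all probe sets. *CSLD2*, *CC1* and *STL1* were higher in replicate 3, and *XTH16* and *XTH32* were lower. For such genes the standard error of a difference from Xyl was wide without the block (1.32 for *XTH19* and 0.87 for *CC2*, log2) and narrow with it (0.30 and 0.14), while for *CSI1* it was 0.10 in both fits.

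Over the 12 arrays, the values of the 5 genes were also set against each other as deviations from the mean of their replicate. *CSLC4* and *XTH30* varied most alike (Pearson's r = 0.84, n = 12), followed by *CSI1* and *XTH30* (r = 0.79) and *CSI1* and *CSLC4* (r = 0.66). *CESA10* ran against these 3 (r = −0.25 to −0.40) and *COBRA* with them (r = 0.48 to 0.58). In values not centred by replicate the order was different, with r = 0.63 for *CSI1* with *CSLC4* and with *XTH30* and r = 0.41 for *CSLC4* with *XTH30*, and *COBRA* and *CSLC4* were unrelated (r = −0.01). These values describe 12 arrays that share their Xyl group and normalization, and 4 of the genes were selected on them.

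The genes most like each of the 5 by the same measure were taken from 13564 others with a named probe set. They were picked on these same arrays, so a high r and differences from Xyl like those of the 5 genes follow from the choice. Likeness to *CSI1* was closest for AT3G01560 (r = 0.97), AT1G09620 (r = 0.96), which encodes a leucyl-tRNA synthetase, and AT5G64270 (r = 0.96), which encodes a subunit of the splicing factor SF3b. Their log2 fold changes with Suc were −0.49, −0.34 and −0.44. For *CSLC4* they were AT5G61970, AT5G49680 and AT5G53960 (r = 0.96, 0.93 and 0.92), for *CESA10* AT2G29780, *GH9B16* and AT5G19100 (r = 0.95, 0.94 and 0.94), and for *COBRA* AT3G44330, AT2G01720 and AT3G24000 (r = 0.96, 0.94 and 0.94). *GH9B16* encodes a family member of the endoglucanases, which cut glucan chains, and its log2 fold changes for Fru, Glc and Suc were 0.29, 0.11 and 0.10. For *XTH30* they were AT2G20670 (r = 0.97), the transcription factor gene *NAC047* (r = 0.95) and *emb2734* (r = 0.94). AT2G20670 differed from Xyl by −0.48, −1.02 and −0.56 with Fru, Glc and Suc and *NAC047* by −0.46, −0.77 and −0.55. In values not centred by replicate r was lower for each of the 15 genes, at 0.81 for AT3G01560 and 0.65 for AT2G20670, and near or below 0 for AT5G49680 (−0.14), AT2G01720 (0.00) and AT3G24000 (0.01).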

How the data were processed

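RNA of the 12 samples had been hybridised to single-colour arrays. The authors deposited log2 values made by RMA (background correction, quantile normalization, summary over probes) for 22810 probe sets, and 64 control probe sets were left out here. Per the submitters' processing notes, the tools were Affymetrix Expression Console, RMA and also limma, without versions. The authors also deposited log2 fold changes and p-values of 6 comparisons of their own, which were not used. Sample labels gave the groups and replicate numbers.

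Probe sets were named by the platform's annotation (13436 with 1 gene, *CSLC4* and *COBRA* among them) or, for 129 more with *CSI1*, *CESA10* and *XTH30*, by the probe set whose 3 ratios of log2 values, averaged over replicates, matched those that the study's list gives for the gene (tolerance 1e-05, next best match of the 5 genes 0.00163 or further off). Gene lengths were taken from TAIR10.1. Coordinates are left out because no build is named with the array values, and no sequence was used here.

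Each sugar was compared with Xyl and with the other sugars in limma 3.58.1 (R 4.3.3) over all 22746 probe sets, in 1 fit of the 4 groups (8 residual degrees of freedom without a block). Replicate numbers were taken to pair the samples, which the methods do not state. In all 18 same-numbered pairs the arrays deviated together from their group means (r from 0.772 to 0.938). For *CSI1*, *CESA10* and *XTH30*, a match of ratios taken within each replicate number was how the probe set was found. It is thus no separate sign of pairing. The listed ratios of *CSLC4*, whose probe set the platform named, were matched by such ratios as well. Ratios of unpaired arrays were not computed. Values with the replicate block, which leaves 6 residual degrees of freedom, are therefore given where they change a call. Replicates were compared in an additive fit of sugar and replicate. The fits were checked on simulated data. Precision rests on 3 arrays per group.

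The genes and lists were chosen with earlier results of these data known. Besides the 5 genes, the text names wall genes past the threshold in either fit, their nearest relatives, the markers, and the 3 most alike genes by Pearson's r. *CC1*, *CC2*, *STL1*, *STL2*, *CSLD2*, *XTH16*, *XTH18* and *XTH19* were added after their values were seen. The lists of nucleotide sugar supply and of photosynthetic and dividing cells had no member with a named probe set. A search of promoters for motifs was not run. Alternatives were the fixed and a random block, the methods' t-test, a trended and robust variance, fits of 6 arrays, the linear scale, leaving out dim probe sets, 2 other normalizations, removal of the trend with gene length and each array left out. Leaving out each array in the fit with the block was chosen after seeing the data.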

Additional observations from a re-analysis of the deposited data

How the results depend on the processing

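Of 228 values of the 5 genes, their counts and the other wall genes against Xyl, 188 were unchanged under other settings. For a gene, unchanged means the same side of the threshold of 0.002, also where its sign turned. No called value changed sign. With the replicate block, *CESA10* with Fru (0.52), *CSLC4* (−0.70) and *XTH30* (−0.61) with Glc, and the mean of the sugars for *CSLC4* (−0.51) and *XTH30* (−0.44) passed as well. A random block did the same except for that mean of *CSLC4*, and so did the block with the length trend removed, except again for that mean (0.60, −0.67, −0.60 and −0.42 for the others). The number of the 5 genes past the threshold was then 1 with Fru and 2 with Glc, and 3 for the mean of the sugars with the block and 2 with the random block. *CSI1* with Suc did not pass in fits of 6 arrays, with a trended and robust variance, without dim probe sets (−0.48 in all 3), with arrays centred on the median (−0.45) or with the length trend removed (−0.31). Its mean over the sugars did not pass with the trended variance or without dim probe sets (−0.36), with centring (−0.33), with a second quantile normalization (−0.35) or with the length trend removed (−0.22), so that the counts there were 0 where all 5 genes were kept, other than for the mean with the length trend removed, where *XTH30* passed. With the methods' t-test, the calls against single sugars were those of the fit without the block. *CSI1* with Suc (−0.48) was the only one, with 0 genes for Fru and 0 for Glc. On the linear scale *CSI1* passed with Glc (−0.34), which made 1 gene. The cause of these changes was not tested.

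With each array left out in turn and no block, the log2 fold change ran from −0.52 to −0.44 (*CSI1* with Suc), −0.39 to −0.34 (*CSI1*, mean of the sugars), −0.82 to −0.61 (*CSLC4* with Glc), −0.61 to −0.41 (*CSLC4*, mean), −0.82 to −0.46 (*XTH30* with Glc) and −0.64 to −0.28 (*XTH30*, mean), and 0 to 1 of the genes passed with Glc, Suc and the mean. With the block it ran from 0.44 to 0.62 (*CESA10* with Fru), −0.51 to −0.44 (*CSI1* with Suc), −0.39 to −0.32 (*CSI1*, mean), −0.74 to −0.65 (*CSLC4* with Glc), −0.59 to −0.44 (*CSLC4*, mean), −0.76 to −0.44 (*XTH30* with Glc) and −0.58 to −0.27 (*XTH30*, mean). Each of these calls was lost without at least 1 array. *COBRA* did not pass against Xyl under any setting run, and its sign with Fru changed under several, among them centring (0.04) and leaving out Xyl replicate 3 (0.07). No difference between sugars passed under any setting run. The difference of *XTH30* between replicates 1 and 2 also lost its call with a second quantile normalization (0.31).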
